A study of Mus musculus with 28 samples.

Results

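The 10 genes described here encode acute phase proteins and hepatokines, proteins that the liver releases into the blood: Saa1, Saa2, Saa3, Orm1, Orm2, Hp, Hpx, Lcn2, Apcs and Fgl1. They were chosen by function, with earlier results of these data known, so counts of members beside shares of all genes are a description. Their rows were taken by gene symbol from each of 10 tables of group comparisons that list 47719 genes. All 10 were found in every table and all 10 were tested in every table. Liver RNA came from 28 male C57BL/6 mice in 7 groups of 4.

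The mice were about 6 weeks old when the diets began. Lean control mice ate a low-fat diet in which fat supplied 10% of calories. In the diet that the other 6 groups shared, fat supplied 40% of calories, fructose made up 22% and cholesterol 2% of the weight. It was fed for 26 weeks to bring on nonalcoholic steatohepatitis (NASH), in which a fat-laden liver becomes inflamed and scarred. Obeticholic acid (OCA), a modified bile acid, was then given once a day by mouth at 25 mg/kg for 4 weeks. Tropifexor (LJN452), which is not a bile acid, was given in the same way at a low, a mid or a high dose. The labels give 0.1, 0.3 and 0.9 mg/kg without tying a dose to a group, and low, mid and high were read as these doses from smallest to largest. Both drugs are agonists of FXR, a nuclear receptor for bile acids. A separate group on the NASH diet received vehicle alongside each drug. These vehicle mice were identified by title, since their treatment field names the drug. The labels name no transgene or deletion in any group.

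Acute phase proteins are plasma proteins that hepatocytes make in greater or smaller amounts during inflammation, chiefly in response to interleukin 6 and interleukin 1 acting through STAT3, C/EBP and NF-kB factors. Serum amyloid A, orosomucoid, haptoglobin, hemopexin, lipocalin 2 and, in mice, serum amyloid P belong to the positive group, which rises. Fgl1 (fibrinogen-like 1, or hepassocin) is a hepatokine, a liver protein that signals to other cells, and it is a ligand of the T cell receptor LAG-3.

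The serum amyloid A genes lie together on chromosome 7 of GRCm38. Saa3 spans chr7:46711998-46715676 and Saa1 spans chr7:46740499-46742980, both on the minus strand, and Saa2 spans chr7:46751833-46754314 on the plus strand. The gap between Saa1 and Saa2 is 8852 bases, and that between Saa3 and Saa1 is 24822 bases. Orm1 (chr4:63344560-63348163) and Orm2 (chr4:63362449-63365878) are neighbours on the plus strand, 14285 bases apart. Hpx lies at chr7:105591613-105600116, Hp at chr8:109575130-109579172, Fgl1 at chr8:41191434-41215156, Lcn2 at chr2:32384633-32388252 and Apcs at chr1:172893961-172895041, all on the minus strand. In the GENCODE annotation of this build no other gene overlaps any of the 10. The transcripts of Saa1 and Saa2 were identical at 572 of 606 aligned bases (94.4%), and those of Orm1 and Orm2 at 705 of 775 (91.0%). Reads shared by such copies could have been divided between them in counting, so the separate values of Saa1 and Saa2, and of Orm1 and Orm2, are uncertain, and their sums are given too.

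Upstream sequence is shown for 4 members whose levels moved furthest with diet and drug among those with an entry and no exon in the window. RefSeq promoters of GRCm38.p6 matched 7 of the 10 genes, and the window runs from 250 to 51 bases before the start given there, 5′ to 3′ on the gene's own strand. The window of Lcn2 lies inside its own gene as the deposited tables place it, over annotated exons, and is left out here, which leaves 6 windows upstream of their gene. Capitals mark TTGCNNAA, the core of a C/EBP binding motif, searched on both strands. C/EBP factors are liver transcription factors of the acute phase response.
Saa1, chr7:46743031-46743230, minus strand: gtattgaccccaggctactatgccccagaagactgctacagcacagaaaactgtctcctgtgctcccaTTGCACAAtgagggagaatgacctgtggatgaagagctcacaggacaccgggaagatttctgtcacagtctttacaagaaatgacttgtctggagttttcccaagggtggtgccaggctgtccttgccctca
Saa2, chr7:46751583-46751782, plus strand: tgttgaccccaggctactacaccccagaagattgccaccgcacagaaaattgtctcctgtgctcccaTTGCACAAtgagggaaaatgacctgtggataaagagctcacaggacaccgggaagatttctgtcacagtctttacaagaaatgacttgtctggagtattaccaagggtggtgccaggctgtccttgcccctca
Saa3, chr7:46715727-46715926, minus strand: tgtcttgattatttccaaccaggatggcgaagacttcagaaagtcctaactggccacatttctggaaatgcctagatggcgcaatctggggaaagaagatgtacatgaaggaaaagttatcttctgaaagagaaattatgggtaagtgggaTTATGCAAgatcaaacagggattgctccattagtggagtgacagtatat
Orm2, chr4:63362199-63362398, plus strand: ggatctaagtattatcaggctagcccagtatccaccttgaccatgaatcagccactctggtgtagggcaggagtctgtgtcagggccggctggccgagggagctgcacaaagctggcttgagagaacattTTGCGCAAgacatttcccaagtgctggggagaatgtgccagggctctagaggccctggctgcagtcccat

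The windows of Saa1 and Saa2 were identical at 188 of 199 aligned bases (94.5%), including the marked 8 bases, while those of Saa1 and Saa3 were identical at 46.9% of aligned bases. The motif starts 182 bases before the start of Saa1, 183 before that of Saa2, 99 before that of Saa3 (where it matches on the reverse strand) and 120 before that of Orm2 (where it reads the same on both strands). It was present in 5 of the 6 upstream windows, the fifth being that of Hpx, and in 8.11% of 32851 promoter windows of the same 200 bases. A STAT motif, TTCNNNGAA, was found in the window of Apcs alone among the 6, and in 5.76% of all windows. The NF-kB consensus was found in 0 of the 6 and in 5.71% of all windows. A match is a stretch of letters and was not tested as a binding site.

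Expression is given as FPKM, sequenced fragments scaled to transcript length and to the mapped fragments of the library, with 1 value per group of 4 mice. Whether single mice of different groups overlapped is therefore not known. The tables were scaled separately, so levels are set on a common scale through the lean control values that 6 of them share. In lean liver the members spanned more than 2 orders of magnitude on this per-length scale. Hpx, the heme carrier, was the 38th most abundant gene, Hp the 53rd and Orm1 the 98th, while Saa3 ranked 5575th. In tropifexor-vehicle mice the same table placed Saa1 120th, up from 727th, Saa2 181st, up from 1545th, Lcn2 320th, up from 3034th, and Orm2 589th, up from 2727th. Together the 10 genes held 0.691% of all FPKM in lean control, 1.18% in OCA-vehicle mice and 1.20% in tropifexor-vehicle mice. Under drug they held 0.970% with OCA and 1.07%, 0.567% and 0.567% with low-, mid- and high-dose tropifexor. Most of each share was Hp, Hpx and Orm1, which held 0.630% in lean control, 1.01% in OCA-vehicle mice and 0.974% in tropifexor-vehicle mice. The plot of group levels by gene shows the 7 values of each member.

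**Figure D1:**
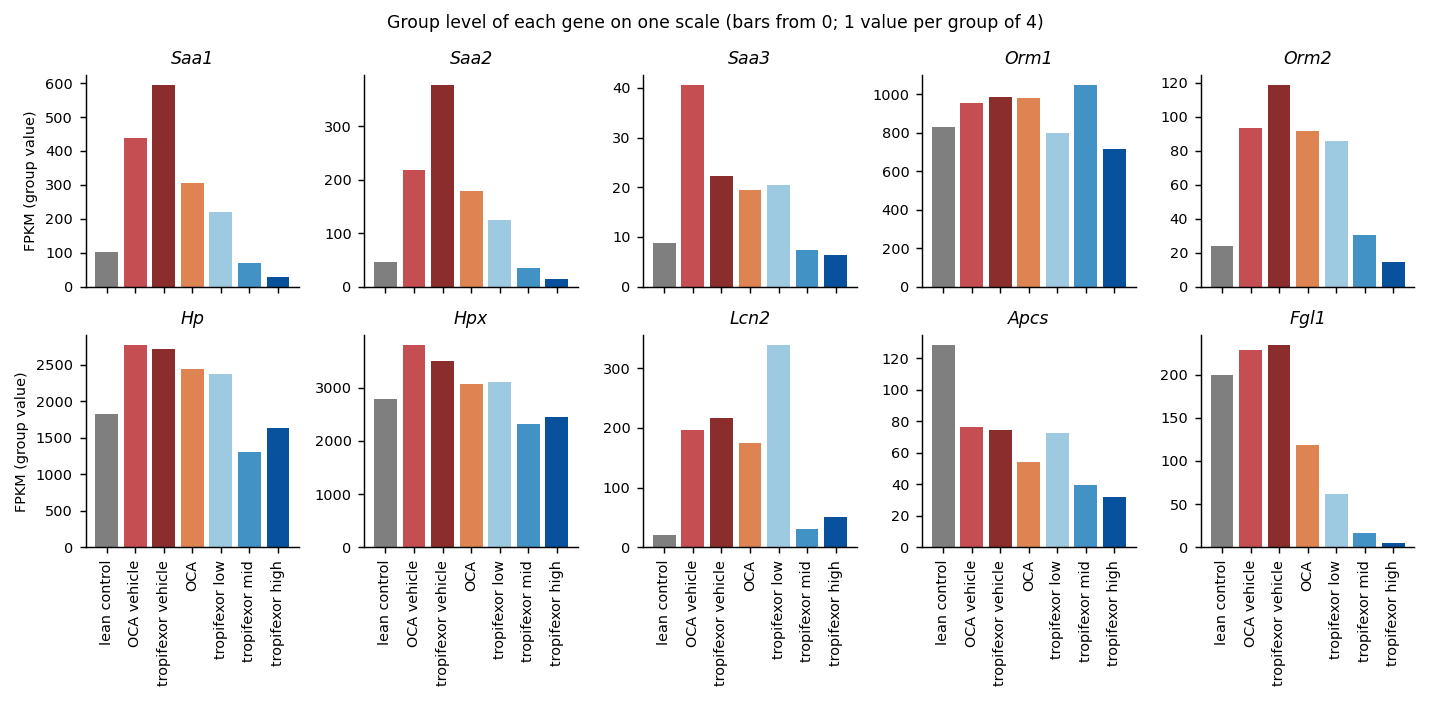
Group level of each of the 10 genes in FPKM on the common scale (y axis, from 0, its range set per gene) in the 7 groups (x axis), 1 bar per group of 4 mice and no error, since no value per mouse was used. Saa1 reached 595 in tropifexor-vehicle mice and 28.6 at the high dose, Fgl1 fell from 234 to 5.13, and Orm1 stayed between 716 and 1049.

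On the NASH diet the 5 members least abundant in lean liver rose and Apcs fell, while Fgl1, Orm1, Hp and Hpx stayed nearer to their lean level. In both vehicle groups Saa1, Saa2, Saa3, Orm2 and Lcn2 rose, and Apcs fell, against lean control. Of the 10, Lcn2 rose most, by 3.26 (log2, standard error 0.132) in OCA-vehicle mice and by 3.39 (0.139) in tropifexor-vehicle mice, in the authors' deposited table. Hp rose in tropifexor-vehicle mice alone, while Orm1, Hpx and Fgl1 were not called in either. A gene is called where the authors' Cuffdiff test gave a q (the p adjusted over all tested genes) under 0.05. By that rule 5 members rose in OCA-vehicle mice, where 11.4% of 15774 tested genes rose, and 1 fell, where 6.56% fell. In tropifexor-vehicle mice 6 rose, beside 12.1% of 15484 tested genes, and 1 fell, beside 8.53%. The median log2 change of the members was 1.29 and 0.96 in the 2 vehicle groups, and that of all tested genes 0.02 and 0.01. These 2 comparisons share the lean control mice. The standard error printed beside a fold change is the one implied by the deposited test statistic, rescaled so that it matches the deposited p in the median gene. With a normal p taken from the unscaled statistic, Apcs was no longer called in either vehicle group, nor Hp in tropifexor-vehicle mice.

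**Figure D2:**
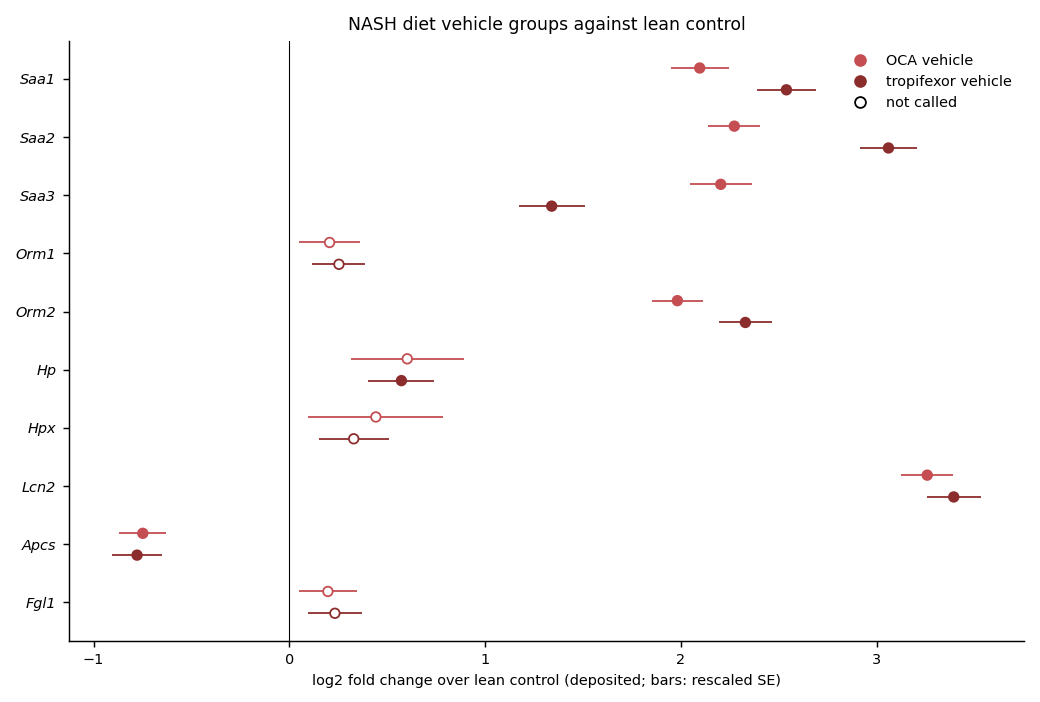
Log2 fold change of each gene in the 2 vehicle groups over lean control (x axis) from the authors' deposited table, with bars of 1 rescaled standard error, filled where called. Lcn2 lies farthest right at 3.26 and 3.39, and Apcs is the only gene left of 0, with -0.75 and -0.78.

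OCA lowered 4 of the 10 members, and tropifexor lowered more of them at the mid and high dose. Under OCA Saa1, Saa3, Apcs and Fgl1 fell and 6 were not called, where 2.23% of 15706 tested genes fell. At the low dose of tropifexor Saa1, Saa2 and Fgl1 fell, beside 5.20% of 16144 tested genes, and Lcn2 rose, beside 6.03%. At the mid dose 9 fell, beside 15.7% of 15686 tested genes, and Orm1 was not called. At the high dose all 10 fell, beside 15.5% of 15818. The median change of the members was -0.31 under OCA and -0.25, -1.78 and -1.95 at the rising doses, against -0.01, -0.00 and -0.01 over all tested genes under OCA, low and mid dose and -0.05 at the high dose. The 3 doses share 1 vehicle group. In bulk liver RNA, fewer cells of a type and less RNA per cell cannot be told apart. With a normal p from the test statistic, 0 of the 4 calls under OCA and 1 of the 3 falls at the low dose (Fgl1) were left, since that p is larger than the deposited one for the same statistic. It also removed the rise of Lcn2 at the low dose, the fall of Hpx at the mid dose and those of Orm1, Hp and Hpx at the high dose.

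**Figure D3:**
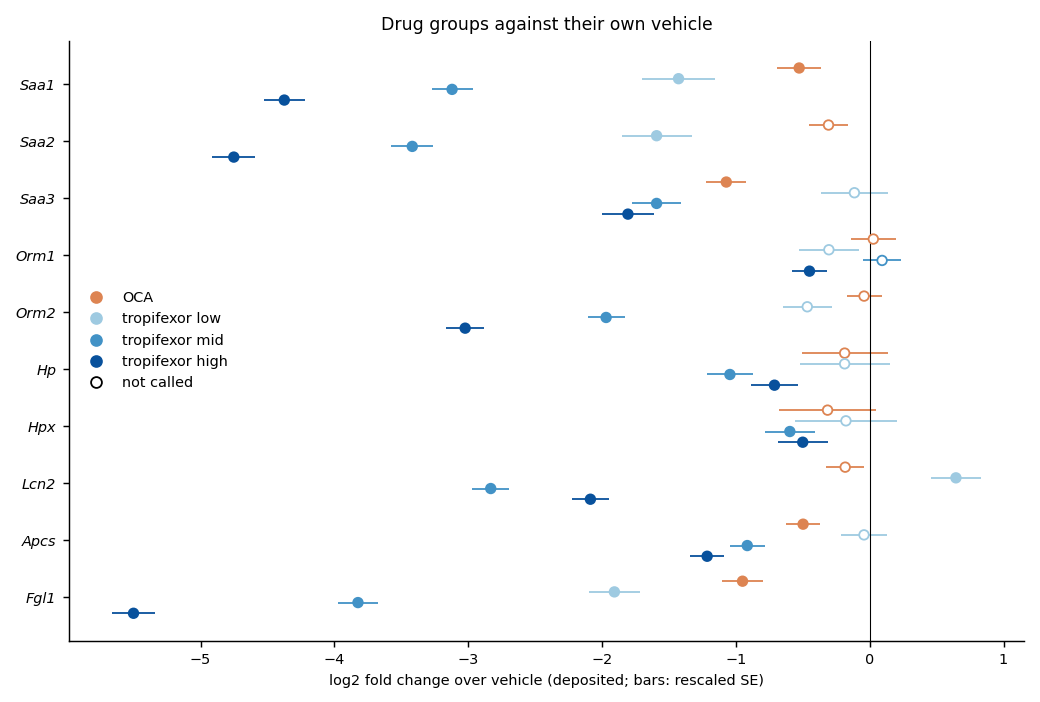
Log2 fold change of each gene over its own vehicle group (x axis) for OCA and the 3 tropifexor doses, from the authors' deposited table, with bars of 1 rescaled standard error, filled where called. The high-dose points lie between -0.45 for Orm1 and -5.50 for Fgl1, and the low-dose point of Lcn2, at 0.64, is the only called one right of 0.

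Saa1 and Saa2 encode the acute serum amyloid A apolipoproteins, which travel on high-density lipoprotein. Saa1 stood at 103 FPKM in lean control, 438 and 595 in the OCA and tropifexor vehicle groups, 307 under OCA, and 221, 68.4 and 28.6 at the low, mid and high dose. Saa2 stood at 45.3 FPKM in lean control, 219 and 378 in the same vehicle groups, 178 under OCA, and 125, 35.3 and 14.0 at the rising doses. For both genes the vehicle groups were highest, and the mid and high dose lay below lean control. Saa1 rose with the diet by 2.10 (0.148) and 2.54 (0.149), or 4.27-fold and 5.81-fold, in the authors' deposited table of each vehicle group. Under tropifexor it fell by 1.43 (0.274), by 3.12 (0.153) and by 4.37 (0.155) at the low, mid and high dose, the last being 20.7-fold lower, per the authors' deposited table. Saa2 followed with rises of 2.27 (0.132) and 3.06 (0.147) and falls of 1.59 (0.261), 3.42 (0.156) and 4.75 (0.161), the last 26.9-fold lower, by the authors' deposited table. OCA gave Saa1 -0.53 (0.165, q = 0.0477) and Saa2 -0.31 (0.146, q = 0.404), per the authors' deposited table. The Saa1 call under OCA was lost at a q threshold of 0.01.

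The sum of Saa1 and Saa2 depends less than either value on how shared reads were divided between them. It is not fully free of this, since FPKM is scaled to length and the transcripts have 609 and 652 bases. The sum had a log2 fold change of 2.15 and 2.72 with the diet. Under drug it had -0.45 with OCA and -1.49, -3.23 and -4.51 at the rising doses, with no test of its own. The ratio of Saa1 to Saa2 in FPKM was 2.26 in lean control, 2.00 and 1.58 in the vehicle groups, 1.72 under OCA, and 1.76, 1.94 and 2.05 at the low, mid and high dose. In the order of levels, the vehicle groups were not called different for either gene, nor were the mid and high dose. These steps were tested as differences of effects with the implied error. With the smaller rescaled error both genes were called lower at the high than at the mid dose. With it Saa2, but not Saa1, was also called different between the vehicle groups. For Saa1 the OCA-vehicle mice stood above OCA, the low dose above lean control, and lean control above the mid dose, each by a call of the authors' deposited table. OCA and the low dose have different vehicles and were not compared as levels.

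Saa3 is the serum amyloid A form that macrophages and other cells outside the liver parenchyma also make. Its level was 8.83 FPKM in lean control, 40.6 and 22.3 in the OCA and tropifexor vehicle groups, 19.5 under OCA, and 20.5, 7.39 and 6.33 at the low, mid and high dose. The OCA-vehicle mice stood highest, and the mid and high dose lay near lean control. The authors' deposited table gave a 4.60-fold and a 2.53-fold rise with the diet, a log2 fall of 1.07 (0.151) under OCA, and -0.11 (0.252, q = 0.909), -1.59 (0.181) and -1.81 (0.191) at the rising doses. Saa3 was thus called under OCA and Saa2 was not, and the genes were not compared with each other. The ratio of Saa1 to Saa3 in FPKM was 11.6 in lean control, 10.8 in OCA-vehicle mice and 26.6 in tropifexor-vehicle mice, and 4.52 at the high dose. The diet effects of the 2 vehicle groups differed by -0.86 for Saa3 (tropifexor minus OCA vehicle, 95% interval -1.78 to 0.06) and by 0.79 for Saa2 (-0.00 to 1.58). Neither was called, and both were called when the rescaled error replaced the implied one.

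Markers of macrophages and fat cells stood beside the Saa3 values. Of 12 macrophage markers, 9 rose and 1 fell in OCA-vehicle mice, and 8 rose and 1 fell in tropifexor-vehicle mice. Under OCA 5 fell, and at the low, mid and high dose 1, 10 and 7 fell. Over all tested genes, 11.4% and 12.1% rose with the diet in the OCA and tropifexor vehicle groups, and 6.56% and 8.53% fell. The share of all genes that fell was 2.23% under OCA and 5.20%, 15.7% and 15.5% at the rising doses. The summed level of the macrophage markers on the common scale was 171 FPKM in lean control, 321 and 299 in the vehicle groups, 211 under OCA, and 232, 152 and 192 at the rising doses. Against lean control, 7 of the 12 were higher and 2 lower under OCA, 9 and 2 at the low dose, 2 and 3 at the mid dose, and 4 and 1 at the high dose. The 2 that were higher at the mid dose were Gpnmb and Trem2. Against lean control 10.3%, 13.8%, 11.7% and 12.2% of all tested genes were higher under OCA and at the rising doses. In the same order 6.50%, 10.1%, 11.5% and 15.2% were lower. Clec4f, of Kupffer cells, was not called against lean control except at the low dose (-0.72 in the authors' deposited table). The markers that were lower than lean control in the vehicle, OCA, mid-dose and high-dose groups were thus others of the 12. None of the 12 was under 0.1 FPKM in any group. Of 5 adipocyte markers, Adipoq, Lep, Plin1 and Retn were not tested and did not exceed 0.167 FPKM in any table. The remaining one, Cfd, rose by 5.12 and 4.57 with the diet and fell by 4.18 under OCA, by 6.95 at the low and by 5.90 at the high dose (mid dose -9.20, not called), in the authors' deposited table. The summed level of the 5 was 1.58 FPKM in lean control, 44.1 and 30.0 in the vehicle groups, 2.60 under OCA, and 0.354, 0.0981 and 0.709 at the rising doses. In lean control and the vehicle groups most of this sum was Cfd, at 1.26 FPKM in lean control and 29.8 in tropifexor-vehicle mice. The rise of the sum with the diet was thus that of Cfd alone. The part of these cells in the Saa3 values was not tested.

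Orosomucoids, or alpha-1 acid glycoproteins, are acidic plasma proteins that bind drugs and lipids. Orm1 stood at 828 FPKM in lean control, 955 and 987 in the OCA and tropifexor vehicle groups, 978 under OCA, and 797, 1049 and 716 at the low, mid and high dose. Orm2 stood at 23.7 FPKM in lean control, 93.5 and 119 in the vehicle groups, 91.4 under OCA, and 85.8, 30.2 and 14.5 at the rising doses. Orm1 thus held a narrow band, whereas Orm2 was high in the vehicle, OCA and low-dose groups and near or below lean control at the other doses. The authors' deposited table gave Orm1 0.21 (0.157) and 0.25 (0.135) with the diet, 0.03 (0.168) under OCA and -0.31 (0.222), 0.09 (0.140) and -0.45 (0.134) at the rising doses, of which only the last was called (q = 0.00504). Orm2 rose by 1.98 (0.128) and 2.33 (0.136) with the diet, per the authors' deposited table. It stood at -0.04 (0.131, q = 0.999) under OCA and -0.47 (0.182, q = 0.100) at the low dose, and fell by 1.97 (0.138) at the mid and by 3.02 (0.143) at the high dose, in the authors' deposited table.

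The ratio of Orm1 to Orm2 in FPKM therefore ran from 35.0 in lean control to 10.2 and 8.30 in the vehicle groups, 10.7 under OCA and 9.28 at the low dose, and to 34.7 and 49.4 at the mid and high dose. Their sum, which is mostly Orm1, had a log2 fold change of 0.30 and 0.38 with the diet and of -0.59 at the high dose. Neighbouring levels of Orm1 that share a table or a vehicle were not called different in any case. The Orm1 fall at the high dose was not called with a normal p from the test statistic.

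Hp, haptoglobin, binds free hemoglobin, and Hpx, hemopexin, binds free heme. Hp stood at 1822 FPKM in lean control, 2764 and 2708 in the OCA and tropifexor vehicle groups, 2441 under OCA, and 2374, 1308 and 1637 at the low, mid and high dose. Hpx stood at 2793 FPKM in lean control, 3792 and 3507 in the vehicle groups, 3064 under OCA, and 3096, 2311 and 2454 at the rising doses. Both were highest in the vehicle groups and lowest at the mid dose. In the authors' deposited table Hp gave 0.60 (0.288, q = 0.153) and 0.57 (0.169, q = 0.00678) with the diet, -0.19 under OCA (0.320) and at the low dose (0.336), and falls of 1.04 (0.170) and 0.71 (0.173) at the mid and high dose. Hpx gave 0.44 (0.345) and 0.33 (0.179) with the diet, neither called, and fell by 0.60 (0.185, q = 0.00892) at the mid and by 0.50 (0.186, q = 0.0298) at the high dose, per the authors' deposited table. The call of Hp in 1 vehicle group is not by itself a difference between the vehicle groups. Their diet effects differed by -0.03 (95% interval -1.36 to 1.30), which was not called, and the interval is too wide to show that they were equal. Blood cell markers, of which 5 of 6 were tested, stood beside these hemoglobin and heme carriers. Of these markers 4 fell with the diet in each vehicle group, beside 6.56% and 8.53% of all tested genes. At the low dose 1 fell, beside 5.20%, and at the mid dose 1 rose, beside 11.8%. The summed level of the markers ran from 221 FPKM at the low dose to 501 in lean control. Their part in the Hp and Hpx values was not tested. The high-dose call of Hpx was lost at a q threshold of 0.01, and the mid-dose call of Hpx and both high-dose calls with a normal p from the test statistic.

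Lcn2, lipocalin 2, withholds iron from bacteria by binding their siderophores, and hepatocytes and neutrophils both make it. Its level was 20.6 FPKM in lean control, 197 and 216 in the OCA and tropifexor vehicle groups, 175 under OCA, and 338, 30.3 and 50.5 at the low, mid and high dose. The low dose stood highest of all groups, and the mid and high dose lay far below vehicle and above lean control. Lcn2 rose by 0.64 (0.187, q = 0.0147) at the low dose and fell by 2.83 (0.138) at the mid and by 2.09 (0.138) at the high dose, in the authors' deposited table. OCA gave -0.18 (0.144, q = 0.877) in the authors' deposited table. The rise at the low dose was not called at a q threshold of 0.01 or with a normal p from the test statistic. The fall from low to mid dose was called by the difference of the effects, -3.48 (-4.41 to -2.55), and the step from mid to high dose, 0.74 (-0.03 to 1.52), was not.

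Markers of neutrophils and of bile duct cells stood beside the Lcn2 values. Over all tested genes, 11.4% and 12.1% rose in the OCA and tropifexor vehicle groups, 1.81% under OCA and 6.03% at the low dose. At the mid and high dose 15.7% and 15.5% of all genes fell. Of 10 neutrophil markers 4 or 5 were tested in a table. S100a8 and S100a9 rose in OCA-vehicle mice, S100a9 alone in tropifexor-vehicle mice, and both fell at the mid dose. By Cuffdiff 0 of 5 were called under OCA, at the low dose and at the high dose, with 2, 3 and 2 at an unadjusted p under 0.05. The summed level of the list was 6.88 FPKM in lean control, 15.7 and 9.64 in the vehicle groups, 12.9 under OCA, and 16.3, 4.17 and 6.02 at the rising doses. Ly6g, which defines mouse neutrophils, was listed at 0 in lean control, the tropifexor-vehicle mice and the mid and high dose, and Mpo, Camp and Ngp did not exceed 0.137 FPKM in the tables against vehicle. Of 6 cholangiocyte markers, Epcam and Spp1 rose and Krt19 fell with the diet in each vehicle group, 2 rose under OCA, 4 rose at the low dose (Epcam by 1.63, Krt19 by 1.22, Sox9 by 1.03 and Spp1 by 0.63 in the authors' deposited table), and 2 and 1 fell at the mid and high dose. Their summed level was 39.7 FPKM in lean control, 130 and 173 in the vehicle groups, 197 under OCA, and 274, 70.3 and 110 at the rising doses. Most of it was Spp1, osteopontin, which other cells such as macrophages also make. Without Spp1 the sum was 7.32 FPKM in lean control, 7.11 and 7.08 in the vehicle groups, 9.49 under OCA, and 17.6, 4.64 and 7.01 at the rising doses. With or without Spp1 it was highest at the low dose, as was Lcn2, but without it the vehicle groups stood no higher than lean control. Their part in the Lcn2 values was not tested.

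Apcs encodes serum amyloid P, a pentraxin that binds amyloid fibrils and cell debris and is the main pentraxin of the acute phase in mice. It stood at 128 FPKM in lean control, 76.4 and 74.8 in the OCA and tropifexor vehicle groups, 54.4 under OCA, and 72.6, 39.5 and 31.9 at the low, mid and high dose. Lean control stood highest, whereas the serum amyloid A genes were highest in a vehicle group, and the mid and high dose stood lowest. Apcs fell with the diet by 0.75 (0.120) and by 0.78 (0.126), under OCA by 0.50 (0.124, q = 0.00479), and at the mid and high dose by 0.91 (0.132) and by 1.21 (0.129), in the authors' deposited table of each. The low dose gave -0.04 (0.174, q = 0.963) in the authors' deposited table. In the order of levels, lean control stood above the OCA-vehicle mice by a call, and the 2 vehicle groups, the tropifexor vehicle and low dose, and the mid and high dose were not called different.

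Fgl1, the hepatokine of the group, is made by hepatocytes and secreted into the blood. Its level was 199 FPKM in lean control, 228 and 234 in the OCA and tropifexor vehicle groups, 119 under OCA, and 62.3, 16.5 and 5.13 at the low, mid and high dose. The diet groups without drug lay close to lean control, and each drug group lay below it. The diet gave 0.20 (0.149, q = 0.467) and 0.23 (0.138, q = 0.279), not called in the authors' deposited table. Fgl1 fell by 0.95 (0.152) under OCA and by 1.91 (0.193), 3.82 (0.149) and 5.50 (0.157) at the rising doses, or 1.93-fold, 3.75-fold, 14.2-fold and 45.3-fold lower, per the authors' deposited table. It was the only member that fell in all 4 drug groups and was not called in either vehicle group. The neighbouring levels of the vehicle groups and lean control were not called different, lean control stood above OCA, and both steps from low to mid and from mid to high dose were called.

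Differences between the drug effects were tested for all genes, each effect being a log2 fold change over vehicle with the unscaled error implied by its test statistic. High minus low dose was -2.95 for Saa1 (95% interval -4.21 to -1.69), -3.16 for Saa2 (-4.39 to -1.93), -2.56 for Orm2 (-3.48 to -1.63), -2.73 for Lcn2 (-3.66 to -1.80) and -3.59 for Fgl1 (-4.59 to -2.60). These 5 of 10 were called lower, beside 0.207% of 15467 genes. From the low to the mid dose Lcn2 and Fgl1 (-1.92, -2.89 to -0.94) were called lower, beside 0.345% of 15368 genes. Between the mid and the high dose 1 was called, Fgl1 with -1.68 (-2.54 to -0.81), beside 0.319% of 15374 genes, and this call was lost when both effects were centred on the median of all tested genes. The steps of Orm1, Hp and Hpx were not called, and their intervals were wide, for Hpx from -2.03 to 1.39 between low and high dose. With the rescaled error 7 members were called lower from low to mid dose (background 6.57%), 7 from low to high (4.17%) and 5 in either direction from mid to high (2.32%), among them Lcn2 as higher at the high dose.

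The effects of OCA at 25 mg/kg and of tropifexor were also set against each other, although the doses are not matched and the vehicle groups differ. The high-dose effect minus the OCA effect was -3.85 for Saa1 (-4.75 to -2.95), -4.44 for Saa2 (-5.31 to -3.58), -2.98 for Orm2 (-3.75 to -2.21), -1.90 for Lcn2 (-2.70 to -1.11) and -4.55 for Fgl1 (-5.42 to -3.68). These 5 were called lower, beside 0.940% of 15206 genes, and 7 with the rescaled error, beside 7.15%. Saa3, whose log2 value under OCA was the lowest of the 10, differed by -0.74 (-1.71 to 0.24) and was not called. Between low-dose tropifexor and OCA 0 of the 10 were called with the implied error and 1 had an unadjusted normal p under 0.05, beside 0.418% of 15310 genes called. With the rescaled error 4 were called, beside 5.24%: Saa2 and Fgl1 lower and Saa3 and Lcn2 higher at the low dose than under OCA. The diet effects of the 2 vehicle groups gave 0 calls with the implied error and 0 at an unadjusted normal p under 0.05, beside 0.0985% of 15230 genes called, and 2 with the rescaled error (Saa2 and Saa3), beside 0.381%.

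**Figure D4:**
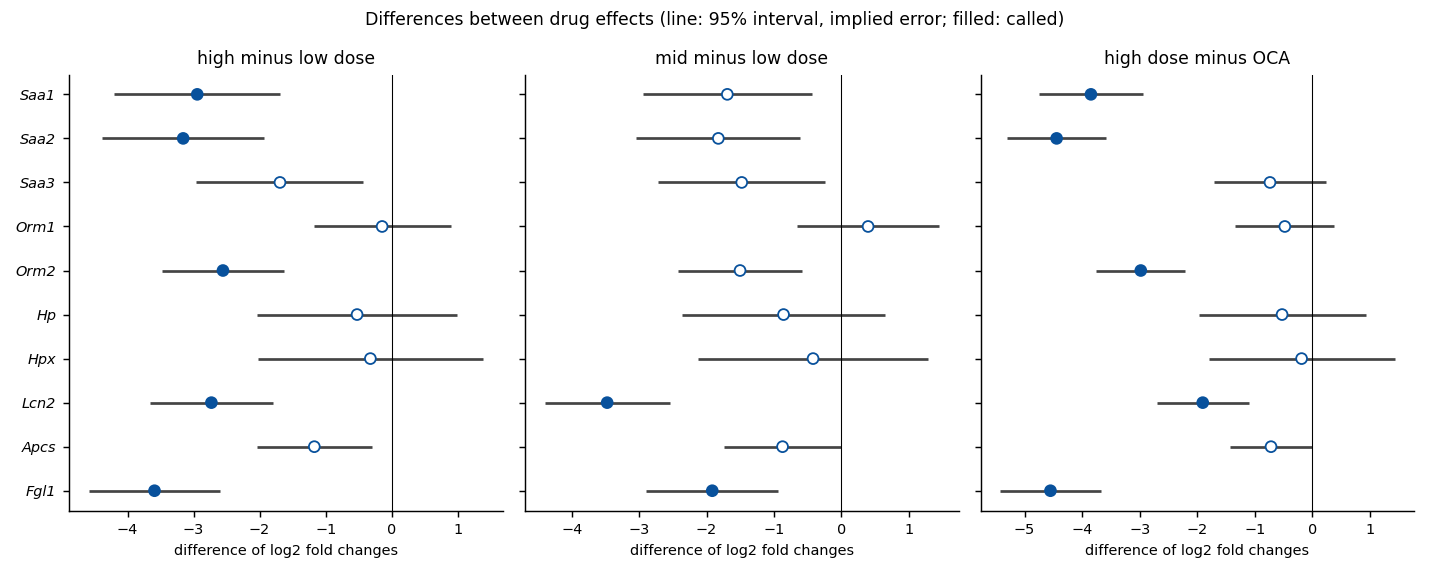
Difference of 2 log2 fold changes over vehicle (x axis) for each gene, with its normal 95% interval from the implied error, filled where called after adjustment over all genes. In the left panel Saa1, Saa2, Orm2, Lcn2 and Fgl1 are called for high minus low dose, in the middle panel Lcn2 at -3.48 and Fgl1 at -1.92 for mid minus low, and in the right panel the same 5 genes as at left for high dose minus OCA.

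Set against lean control, the drug groups differed in which members still stood above it. Under OCA 6 members were higher (Saa1, Saa2, Saa3, Orm2, Hp and Lcn2), beside 10.3% of 15208 tested genes, and Apcs and Fgl1 were lower, beside 6.50%. At the low dose Saa1, Saa2, Saa3, Orm2 and Lcn2 were higher, beside 13.8% of 15937, and Apcs and Fgl1 lower, beside 10.1%. At the mid dose Orm1, Orm2 and Lcn2 were higher, beside 11.7% of 15229, and Saa1, Saa2, Hp, Apcs and Fgl1 lower, beside 11.5%. At the high dose Lcn2 alone was higher, beside 12.2% of 15443, and Saa1, Saa2, Orm2, Apcs and Fgl1 were lower, beside 15.2%. These 4 comparisons share the lean control mice with each other.

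Saa1 stood at 1.58 (0.126) under OCA, 1.11 (0.230) at the low dose, -0.58 (0.123) at the mid and -1.84 (0.126) at the high dose, in the authors' deposited table. Saa2 stood at 1.98 (0.126), 1.46 (0.224), -0.36 (0.131) and -1.70 (0.136) in that order, by the authors' deposited table. Lcn2 stood at 3.08 (0.133), 4.04 (0.182), 0.56 (0.133) and 1.29 (0.131) in the same order, per the authors' deposited table, and so was above lean control in every drug group. Orm2 gave 1.95 (0.132), 1.86 (0.186), 0.35 (0.136) and -0.71 (0.142), changing sign between the mid and the high dose, in the authors' deposited table. Fgl1 gave -0.74 (0.123), -1.68 (0.174), -3.60 (0.130) and -5.28 (0.140), and Apcs -1.24 (0.116), -0.82 (0.161), -1.70 (0.116) and -2.01 (0.114), by the authors' deposited table. Saa3 stood at 1.14 (0.167) under OCA and 1.22 (0.264) at the low dose in the authors' deposited table, and was not called at the mid dose (-0.26, 0.180) or the high dose (-0.48, 0.195, q = 0.0604), and Hpx was not called in any of the 4. The calls of Saa2, Orm1 (0.34, q = 0.0239) and Orm2 (q = 0.0460) at the mid dose and of Hp under OCA (0.42, q = 0.0496) were lost at a q threshold of 0.01. With a normal p from the test statistic, Hp and Fgl1 were no longer called under OCA, Saa1, Saa3 and Apcs at the low dose, Saa1, Saa2, Orm1, Orm2, Hp and Lcn2 at the mid dose and Orm2 at the high dose.

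The receptors and partners through which the members act or are cleared moved in both directions. Of 13, 12 were tested. The diet comparison had 6 higher and 2 lower for the OCA-vehicle mice and 4 higher and 2 lower for the other. Under OCA 2 fell, at the low dose 2 rose and 1 fell, at the mid dose 2 rose and 7 fell, and at the high dose 1 rose and 6 fell. Over all tested genes, 11.4% rose and 6.56% fell for the OCA vehicle, and 12.1% and 8.53% for the tropifexor vehicle. Under OCA 2.23% of all genes fell, and at the low dose 6.03% rose and 5.20% fell. At the mid dose 11.8% rose and 15.7% fell, and at the high dose 9.93% and 15.5%. Cd163, the macrophage receptor for hemoglobin bound to haptoglobin, fell by 2.65 and by 2.28 with the diet, fell by 2.24 at the low dose and rose by 0.69 at the mid dose, in the authors' deposited table. Hmox1, which breaks down heme, rose by 0.36 in OCA-vehicle mice, fell by 0.50 under OCA and fell by 1.22 and by 1.17 at the mid and high dose, per the authors' deposited table. Lrp1, the hemopexin receptor, was not called in any comparison with vehicle or in either diet comparison.

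Among the receptors of serum amyloid A, Fpr2 rose by 1.73 and 1.24 with the diet and fell by 1.75 under OCA, and Tlr2 rose by 1.07 and 0.84, rose by 0.68 at the low dose and fell by 1.20 and by 0.65 at the mid and high dose, by the authors' deposited table. Scarb1, which also takes up high-density lipoprotein cholesterol, rose by 0.88, 1.43 and 1.36 at the rising doses in the authors' deposited table. Slc22a17, a receptor for lipocalin 2, fell by 0.97 and by 0.88 at the mid and high dose in the authors' deposited table, and Lrp2 was not tested. Lag3, the receptor that binds Fgl1, rose by 1.11 in OCA-vehicle mice, and was not called in tropifexor-vehicle mice (0.68) or in any drug group against vehicle, per the authors' deposited table. Fcgr1, an Fc receptor that binds pentraxins, rose by 2.16 and 2.19 with the diet and fell by 1.65 and by 1.13 at the mid and high dose in the authors' deposited table.

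The cytokines that induce acute phase genes, with their receptors and signalling proteins, formed a list of 20, of which 18 were tested. With the diet, 7 rose and 2 fell for the OCA vehicle and 8 rose and 3 fell for the tropifexor vehicle, with medians of 0.22 and 0.32. Under OCA 2 rose and at the low dose 2 rose, while at the mid dose 4 rose and 9 fell and at the high dose 2 rose and 10 fell, with medians of -0.48 and -0.43 at the last 2 doses. With the diet, 11.4% of all tested genes rose and 6.56% fell for the OCA vehicle, and 12.1% and 8.53% for the tropifexor vehicle. Of all genes tested, 1.81% rose under OCA and 6.03% at the low dose. At the mid dose 11.8% rose and 15.7% fell, and at the high dose 9.93% rose and 15.5% fell. Il6 itself was not tested and stood at no more than 0.0765 FPKM in the tables against vehicle, and Il1b was not called in any of these 6 comparisons. Tnf rose by 1.59 and 1.38 with the diet and fell by 1.59 and by 1.38 at the mid and high dose, in the authors' deposited table. Il1rn, the antagonist of the interleukin 1 receptor and itself an acute phase gene, rose by 1.54 and 1.49 and fell by 1.62 and by 1.78 in the same groups, per the authors' deposited table. Cebpd, a C/EBP factor, rose by 0.90 and 1.31 with the diet and by 0.52 under OCA, and fell by 1.16 and by 1.21 at the mid and high dose, by the authors' deposited table.

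Osmr, the oncostatin M receptor, rose by 0.86 and 0.94 and fell by 1.27 and by 1.40 at the mid and high dose, in the authors' deposited table. Moving the other way, Socs3, which dampens STAT3 signalling, rose by 1.30, 1.64 and 1.54 at the rising doses, and Il1r1, the interleukin 1 receptor, rose by 0.58 under OCA and by 1.06, 1.49 and 1.52, per the authors' deposited table. The list therefore held members that moved with Saa1 and members that moved against it at the same doses.

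The other positive acute phase genes moved in both directions. Of 19, 18 were tested, or 17 at the low dose. With the diet, 6 rose and 1 fell for the OCA vehicle (median -0.01) and 5 rose and 4 fell for the tropifexor vehicle (median -0.06). Under OCA 0 were called by Cuffdiff, and 3 had an unadjusted p under 0.05. At the low dose 2 fell, at the mid dose 2 rose and 5 fell, and at the high dose 4 rose and 6 fell, with a median of -0.11 there. Over all tested genes, 11.4% rose and 6.56% fell for the OCA vehicle, and 12.1% and 8.53% for the tropifexor vehicle. At the low dose 5.20% of all genes fell, at the mid dose 11.8% rose and 15.7% fell, and at the high dose 9.93% and 15.5%. The 2 of 18 that rose at the mid dose lay near that share. Orm3, the third orosomucoid gene, rose by 2.91 and 2.97 with the diet and rose again by 1.02 and 1.04 at the mid and high dose, where Orm2 fell, in the authors' deposited table. Its transcript was identical to that of Orm2 at 88.5% of aligned bases, so it shares the doubt over the orosomucoid values. The metallothioneins Mt1 and Mt2, which bind zinc, stood at -3.18 and -3.76 at the mid and -3.74 and -4.21 at the high dose, all 4 called lower in the authors' deposited table. Hamp, the iron hormone hepcidin, fell by 1.24 and by 1.15 with the diet, and complement C3 rose by 1.14 at the high dose, per the authors' deposited table. Serpina3n, a protease inhibitor, fell by 0.93 at the low and by 1.09 at the high dose in the authors' deposited table.

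The negative acute phase genes, which fall in inflammation, formed a list of which 11 were tested. Of these, 1 fell with the diet for the OCA vehicle and 4 for the tropifexor vehicle, beside 6.56% and 8.53% of all genes tested, with medians of -0.29 and -0.44. Under OCA 0 were called by Cuffdiff and 1 had an unadjusted p under 0.05. At the low dose 1 fell, at the mid dose 3 rose and 1 fell, and at the high dose 2 rose and 2 fell. Over all tested genes, 1.81% rose under OCA, and 6.03% rose and 5.20% fell at the low dose. At the mid dose 11.8% of all genes rose and 15.7% fell, and at the high dose 9.93% and 15.5%. Serpina6, the corticosteroid carrier, fell by 0.58 and by 1.05 with the diet, and transthyretin (Ttr) fell by 1.15, 0.55 and 1.34 at the rising doses, in the authors' deposited table. Of 8 hepatocyte markers, 1 and 6 fell with the diet for these vehicles. Under OCA 1 rose, and at the low, mid and high dose 1 rose and 2 fell, 3 rose and 2 fell, and 1 rose and 2 fell. Their summed level ran from 43315 FPKM at the high dose to 77758 in lean control, with 46739 in tropifexor-vehicle mice. Most of it was albumin (Alb), at 55403 FPKM in lean control and 31052.5 in tropifexor-vehicle mice, which was not called in any comparison. Alb, Apoa1 and Ttr stand on both the negative acute phase and the hepatocyte list. The part of hepatocytes in the members' values was not tested.

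**Figure D5:**
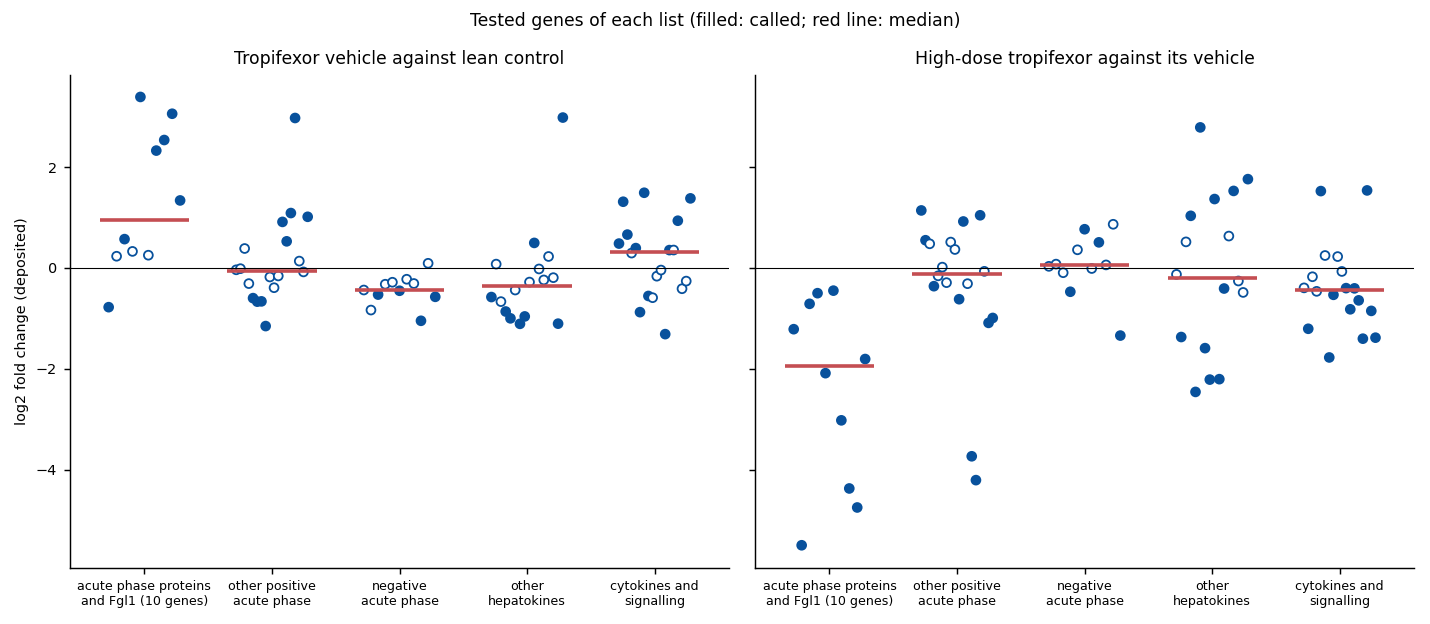
Log2 fold change (y axis) of the tested genes of 5 lists in tropifexor-vehicle mice over lean control (left) and the high dose over its vehicle (right), 1 point per gene, filled where called, with the list's median as a red line. The 10 members have medians of 0.96 and -1.95, and the other positive acute phase genes of -0.06 and -0.11.

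Across the 7 group levels the members followed each other to differing degrees, which is a description over 7 points that share groups and scaling. On the log2 scale Saa1 and Saa2 correlated with r = 0.997, Saa2 and Orm2 with 0.973, and Hp and Hpx with 0.962. Orm1 and Apcs had the lowest value of the 45 pairs, 0.06, and Lcn2 and Fgl1 stood at 0.38. Fgl1 and Apcs, the 2 members that did not rise with the diet and fell under OCA, had an r of 0.857. That value was not particular to them, since Fgl1 and Saa1, which rose with the diet, had an r of 0.862.

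Among 2494 other genes with at least 1 FPKM in every group and a range of at least 1 log2 unit, those most like a member over the 7 groups were listed by Pearson's r. For Lcn2 these were Cd63 (0.998), Tagln2 (0.998) and Plek (0.997). For Saa3 they were Fam26f (0.975), Inpp5d (0.974) and Axl (0.965), and for Orm2 they were Clca3a1 (0.968), Col6a3 (0.962) and Inpp5d (0.960). For Saa1 they were Pgm3 (0.989), Ten1 (0.986) and Hpse (0.979), and for Fgl1 they were Pctp (0.993), Cyp4a10 (0.989) and Lin54 (0.986). Cd63, a membrane protein of secretory vesicles, stood at 1.92 FPKM in lean control, 12.9 in tropifexor-vehicle mice and 16.5, 2.84 and 4.04 at the rising doses, the order of groups that Lcn2 had there. Cyp4a10, a fatty acid hydroxylase, stood at 122 FPKM in lean control, 91.4 in tropifexor-vehicle mice and 38.1, 14.7 and 5.74 at the rising doses.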

How the data were processed

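RNA of 28 livers was extracted with Trizol and made into stranded mRNA libraries, per the labels' protocols. The submitters' processing notes name bcl2fastq, STAR 2.5.1b, Cuffnorm, Cufflinks 2.2.1, Cuffdiff and the build GRCm38, with no role or order. The strand setting of the counting was not given in the sources used here. The FPKM values are the authors' deposited group values, 1 per group of 4 in each of 10 pairwise tables. The log2 fold changes (second group over first), the test statistic (a score), the p-value and the q-value are the authors' deposited Cuffdiff output, per the file headers. Depth per library is unknown, and the p-values rest on the 4 samples of each group, as the authors' Cuffdiff fit used them.

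The members and lists were chosen with earlier results of these data known. A gene was called at status OK and a deposited q under 0.05, adjusted over all genes tested in a table. Differences of effects used the standard error implied by fold change over statistic, summed variances, a normal p and Benjamini-Hochberg adjustment over all genes with status OK in both tables, called under 0.05. No exact test was possible without values per mouse. Where effects share a vehicle, the summed variance is conservative. The rescaled error divides the implied one by 2.03 to 2.05, the ratio of the normal z of the deposited p to the statistic in the median gene. The difference test was tested on simulated effects with either error.

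Lean values shared by 6 tables set the common scale (offsets of -0.11 to 0.07, log2). Columns headed INT were read as OCA. Each vehicle column matched its own vehicle group within a median of 0.000980 (log2), against at least 0.0914 for the other. All members are named. Of each list, at most 4 called genes per comparison with the largest change are named, plus cytokines and receptors linked to a member. The alternatives were q thresholds of 0.01 and 0.1, a minimum of 1 FPKM, centring, a normal p from the statistic, the rescaled error and a pseudocount of 1. Python 3.11.15, pandas 2.3.3 and scipy 1.17.1 were used. Promoters come from RefSeq tables of GRCm38.p6, and protein sequences were not used here.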

Additional observations from a re-analysis of the deposited data

How the results depend on the processing

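The members' calls were least stable against a normal p from the test statistic, which is larger than the deposited p by construction. With it the members called lower numbered 0 in each vehicle group and 0 under OCA, and at the low dose 1 was lower and 0 higher than vehicle. Hpx at the mid dose, and Orm1, Hp and Hpx at the high dose, were no longer called against vehicle. Against lean control it left 1 lower under OCA, 3 higher and 1 lower at the low dose, and 0 higher and 2 lower at the mid dose. At a q threshold of 0.01, 0 members were higher at the low dose than in vehicle and 1 at the mid dose than in lean control. The rescaled error, smaller by construction, called 7 members lower from low to mid dose, 4 lower and 1 higher from mid to high dose, 2 higher and 2 lower for low-dose tropifexor against OCA, and 1 higher and 1 lower between the vehicle groups. Centring left 0 lower from mid to high dose. A q threshold of 0.1 and a minimum of 1 FPKM left all counts within 1.5 times the main ones.

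No fold change of the 240 recomputed with a pseudocount of 1, by centring or by way of the tables against lean control changed sign, and the largest shift was 0.259 (log2), with the pseudocount. No paired analysis was possible because the tables hold 1 value per group, and leaving out a mouse was not run for the same reason. The spread between mice, outlying mice and depth therefore remain unseen, and paralog values rest on the authors' division of shared reads.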

Other observations

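Other hepatokines were not part of the 10 genes and moved in both directions. Of 16 tested, the diet comparison had 3 higher and 4 lower for the OCA vehicle and 2 higher and 6 lower for the tropifexor vehicle. Under OCA 2 rose and 6 fell, and at the low, mid and high dose 4 rose and 2 fell, 4 rose and 4 fell, and 5 rose and 6 fell. Over all tested genes, 11.4% rose and 6.56% fell for the OCA vehicle, and 12.1% and 8.53% for the tropifexor vehicle. Under OCA 1.81% of all genes rose and 2.23% fell, and at the low dose 6.03% and 5.20%. At the mid dose 11.8% rose and 15.7% fell, and at the high dose 9.93% and 15.5%. Fgf21, a regulator of lipid and glucose use, rose by 3.24, 1.94 and 2.79 at the rising doses of tropifexor, while Fgl1 fell there, in the authors' deposited table. Igfbp1, which binds insulin-like growth factors, fell by 1.49 and by 0.96 with the diet, was called higher at the low dose and fell by 2.14 and by 2.21 at the mid and high dose, per the authors' deposited table. Tsku, or tsukushi, rose by 3.30 and 2.98 with the diet and fell by 0.85 under OCA, by the authors' deposited table. Enho, which encodes adropin, fell by 0.90 under OCA and by 2.00 and by 2.46 at the mid and high dose, and Inhbe, an activin subunit, fell by 1.48, 1.54 and 2.21 at the rising doses, in the authors' deposited table. Angptl8 rose by 1.01 in OCA-vehicle mice, fell by 0.86 in tropifexor-vehicle mice, and fell by 1.38 under OCA, per the authors' deposited table of each comparison.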
